A study of Mus musculus with 4 samples.

Results

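The clustered histone genes are the replication-dependent genes for histones H1, H2A, H2B, H3 and H4, most of which lie in the HIST1 cluster on mouse chromosome 13. Members were genes whose symbol starts with Hist1h, Hist2h, Hist3h or Hist4h and whose counts summed to 20 or more over the 4 libraries. The deposited table mixes older and newer gene symbols. Read on the table's own symbols, the rule took 9 rows, of which 3 reached 20 counts: Hist1h2ao, Hist1h4m and Hist1h4n. The same prefixes were therefore also applied to the symbol that GENCODE release M21 gives for each gene identifier, a step chosen after the counts had been seen. That gave 70 rows and 41 members among the 55401 rows of the table: 5 for H1, 9 for H2A, 10 for H2B, 7 for H3 and 10 for H4. The HIST1 cluster held 36 of the members, HIST2 on chromosome 3 held 3, HIST3 on chromosome 11 held 2, and HIST4 held none. Symbols are given below as the table writes them.

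The libraries were made from splenic B cells of C57BL/6 mice, isolated with anti-CD43 microbeads and cultured for 36 hours. The medium held the antibodies anti-IgM (10 µg/ml), which binds the B-cell receptor, and anti-CD40 (1 µg/ml), which binds the receptor for a signal from T cells. Libraries WT1 and WT2 came from wild-type cells, and libraries cKO1 and cKO2 from cells whose label is Adar1 cKO, deleted conditionally in B cells. Adar1 is an RNA-editing enzyme, listed in the table as Adar. Which Cre line and exons were used was not stated in the labels. Nothing in the labels says that the libraries of a group came from separate mice, so the p-values measure only the spread between these libraries. All 4 libraries were selected for poly(A) RNA.

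Histones package DNA into nucleosomes: H2A, H2B, H3 and H4 form the core, and H1 binds the linker. The clustered genes are transcribed mainly in S phase, when new DNA needs new histones. Their mRNAs as a rule end in a conserved stem-loop, bound by the protein Slbp and cut with the help of U7 snRNA, and mostly carry no poly(A) tail. A poly(A) library therefore holds a minor share of these mRNAs, and a value in it is not the cell's total histone mRNA.

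The stem-loop was read from the GENCODE M21 transcripts as the pattern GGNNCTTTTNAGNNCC with a paired stem, searched on the transcript's strand. It was found in 31 of the 41 members, and in 7 of 21834 other protein-coding genes (0.0321%, longest transcript of each). Of the 10 members without a match, 5 had gene models that hold the coding sequence alone, with no UTR in which to find it. H2bc21 and H2bc4, which are among the 8 most abundant members, had no match although their models hold more than the coding sequence. The sequences below, on GRCm38, are those of the other 6 of these 8 and of H3c1, which with H4c4 passed the test. They are printed with the stem-loop in capitals, to show where it is shared and where it differs between these genes.
H4c9 (chr13:22040961-22040986, minus strand): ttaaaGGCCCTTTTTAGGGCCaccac
H4c4 (chr13:23581945-23581970, plus strand): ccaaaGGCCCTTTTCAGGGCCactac
H3c3 (chr13:23745042-23745067, minus strand): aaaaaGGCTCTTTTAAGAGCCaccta
H3c1 (chr13:23761885-23761910, minus strand): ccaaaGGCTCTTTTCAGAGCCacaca
H1f2 (chr13:23739507-23739532, plus strand): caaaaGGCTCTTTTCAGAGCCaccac
H2bc11 (chr13:22043633-22043658, plus strand): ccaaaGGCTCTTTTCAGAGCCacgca
Hist1h2ao (chr13:21810893-21810918, plus strand): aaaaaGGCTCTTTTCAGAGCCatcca

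The stem-loop varied by histone type. The form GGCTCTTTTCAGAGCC was the commonest, in 16 members, and was carried by H1, H2A, H2B and H3 genes. The form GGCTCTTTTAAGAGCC was found in 5 members, 3 for H3 and 2 for H2B. Of the 9 H4 members with a match, 6 carried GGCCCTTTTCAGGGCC and 2 carried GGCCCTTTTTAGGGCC.

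The annotated transcripts differ in how far they run past the stem-loop. In 15 members the model ended 100 bases or fewer after it, and in 16 it ran on for more than 100 bases, up to 4884 in H1f3. A poly(A) signal hexamer (AATAAA or ATTAAA, on the transcript's strand) stood within the last 50 bases of 7 of the 16 long models and of 1 of the 15 short ones, H4c8. The same window held one in 72.3% of the other protein-coding genes. The ends of the long models of H4c9 and H1f2, which lead their histone types, are shown with the last hexamer in capitals.
H4c9 (chr13:22040641-22040666, minus strand): ttctgtttacATTAAAagtattctat
H1f2 (chr13:23740332-23740357, plus strand): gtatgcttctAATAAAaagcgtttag
In H4c9 309 bases lay between the stem-loop and the hexamer, which ended 15 bases before the end of the model. H4c4, with a model running 770 bases past its stem-loop, had its last hexamer 320 bases before the end.

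Promoters of 33 members were found in the RefSeq promoter table (GRCm38.p6) and searched on both strands over the 250 bases before the start. CCAAT stood in 28 of 33, against 33.8% of all 32851 promoters, and was present in all 26 promoters of H1, H2A, H2B and H3 members but in 2 of the 7 of H4. TATAAA stood in 18 of 33, against 12.4% of all promoters. The octamer ATTTGCAT stood in 9 of 33, 5 of the 8 for H2A and 4 of the 8 for H2B, against 1.60% of all promoters. Some genes lie head to head, as H2ac8 (minus strand, to chr13:23571220) and H2bc8 (plus strand, from chr13:23571396) do. With both strands searched, the same site can count for both genes, so the promoters are not independent. The H2bc12 promoter shows the octamer, in capitals, beginning 30 bases before the RefSeq start.
H2bc12 (chr13:22035785-22035804, plus strand): cactttATTTGCATacgaag
These matches are descriptions of the letters in the window.

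Libraries held from 17327480 to 19669651 counts in total. In CPM (counts per TMM-scaled library total), 1 count was worth 0.0509 to 0.0580, while a count of 0 allowed up to 0.174. Adar checked the labels: its level was 137 CPM in WT1, 150 in WT2, 218 in cKO1 and 233 in cKO2, higher under the knockout label (log2 change 0.65 ± 0.06 SE, edgeR adjusted p = 3.4e-08). The counts are per whole gene and do not show a deleted exon, so they do not settle the label. Library WT2 stood apart in some RNAs that carry no poly(A) tail: ribosomal RNA made up 0.447% of its counts against 0.0380% to 0.0530% in the others. Rn7sk, the 7SK RNA, stood at 0.52, 11.3, 1.83 and 0.69 CPM in WT1, WT2, cKO1 and cKO2, and Rpph1, the RNA of RNase P, at 1.80, 8.03, 1.17 and 1.60. WT2 did not stand apart in Malat1 (302, 428, 428 and 422 CPM) or Neat1 (197, 205, 151 and 152), also listed as untailed. Rows typed snoRNA held 1775, 2004, 1607 and 1645 counts, before scaling to the library totals. The 7 B-cell markers were all detected and summed to 4507 to 4530 CPM in the wild-type libraries and 3441 to 3537 in the cKO-labelled ones. The 6 dendritic-cell markers summed to 57.1 to 58.4 and to 108 to 113 CPM, with none of these markers at 0 in all libraries. Most of that rise lay in Flt3, with wild-type and cKO-labelled means of 13.2 and 40.2 CPM, and in Zbtb46, with 40.4 and 62.97. Of the 4 tested, 3 were called higher: Flt3, Zbtb46 and Itgax, the last with 104 counts. Xcr1 was not called (edgeR adjusted p = 0.29). Siglech and Clec9a, with 28 and 6 counts, were not tested. Of the 5 macrophage markers only Adgre1 was called, lower (111 and 108 against 30.3 and 40.3 CPM). The other 4 summed to 17.2, 15.1, 15.1 and 14.3 CPM in WT1, WT2, cKO1 and cKO2. The T-cell, NK-cell, neutrophil and erythroid lists summed to at most 4.94 CPM in any library, and 1 neutrophil and 1 erythroid marker were at 0 throughout. The part of other cell types in the results was not tested. In bulk libraries fewer cells of a type and less RNA per cell cannot be told apart.

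The 41 members together gave 64.3 CPM in WT1, 70.9 in WT2, 53.7 in cKO1 and 54.6 in cKO2. Both cKO-labelled libraries lay below both wild-type libraries: the means were 67.6 ± 4.66 and 54.2 ± 0.649 CPM (SD, n = 2 each), a ratio of 0.801. With 2 libraries against 2, an exact permutation test cannot give a p below 0.33, so none is reported. The exact Poisson 95% intervals ran from 60.6 to 68.2 CPM in WT1 and from 51.2 to 58.2 in cKO2, the 2 nearest libraries. They cover counting error only. Compared with WT1 alone, and so without the library rich in ribosomal RNA, Rn7sk and Rpph1, the ratio was 0.842. The part of untailed RNA in the difference was not tested.

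**Figure D1:**
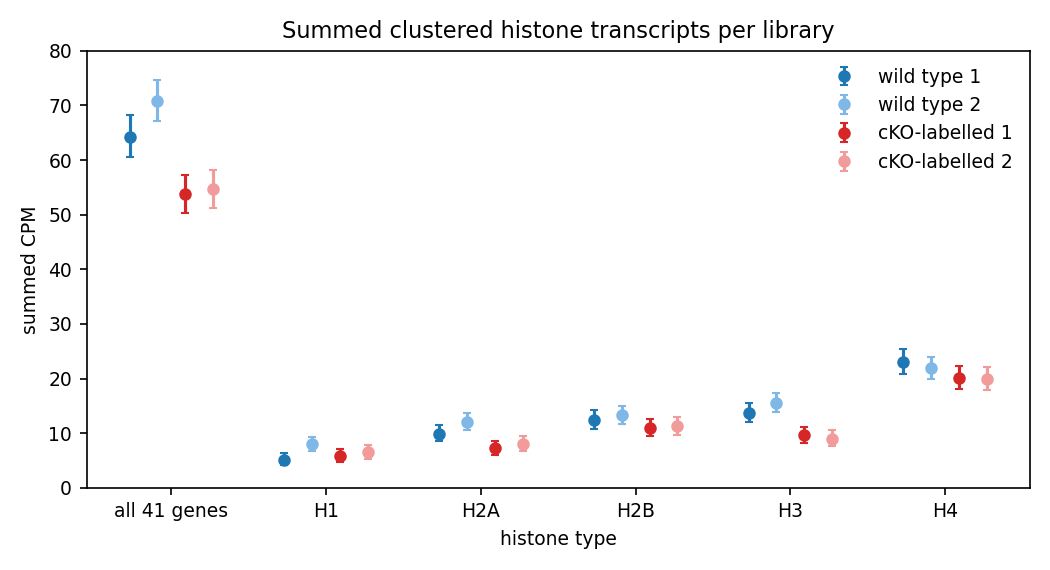
Summed CPM of the clustered histone genes in each library, over all 41 genes and by histone type, with exact Poisson 95% intervals that cover counting error only. The cKO-labelled libraries lay below both wild-type libraries for the sum and for H2A, H2B, H3 and H4, and between them for H1.

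By the ratio of the summed CPM, the gap between the groups was widest for H3 and H2A. The H3 members, which form the nucleosome core with H4, summed to 13.7 and 15.6 CPM in WT1 and WT2 and to 9.61 and 8.996 in cKO1 and cKO2, a ratio of 0.636. The H2A members summed to 9.92 and 12.1 against 7.22 and 7.96, a ratio of 0.689. For both types, and also for H2B and H4, the groups did not overlap, and the difference of the means was larger than the SD within each group. The H2B members gave 12.4 and 13.3 against 10.9 and 11.2 CPM (ratio 0.859). The H4 members gave 23.1 and 21.9 against 20.2 and 19.9 (ratio 0.892). The H1 members gave 5.17 and 8.03 against 5.83 and 6.48, so that the groups overlapped. The differences between the types were not tested.

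Of the 41 members, 32 had enough counts to be tested. The filter asked for about 10 counts in at least 2 libraries, and 10 of the 32 reached it in both wild-type libraries but not in both cKO-labelled ones, against 3 the other way. Low genes could thus enter through their wild-type counts, and the counts below are descriptions of the 32 and not of all 41. In the edgeR quasi-likelihood test, adjusted by Benjamini and Hochberg's method over 14180 genes, 2 members were lower and none higher. Over all genes tested, 9.54% were called lower and 12.2% higher, so the share of members called was not above the background. At an unadjusted p under 0.05 there were 10 members, 9 of them lower, against 32.3% of all genes. The change was below 0 for 24 of the 32, against 51.1% of all genes tested, with a median log2 change of -0.47 against -0.01. In 14 of the 32 both cKO-labelled libraries lay below both wild-type ones, against 28.7% of all genes tested, and in 4 they lay above, against 29.2%. With a median of 54 counts over all 4 libraries, members were measured with large errors.

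**Figure D2:**
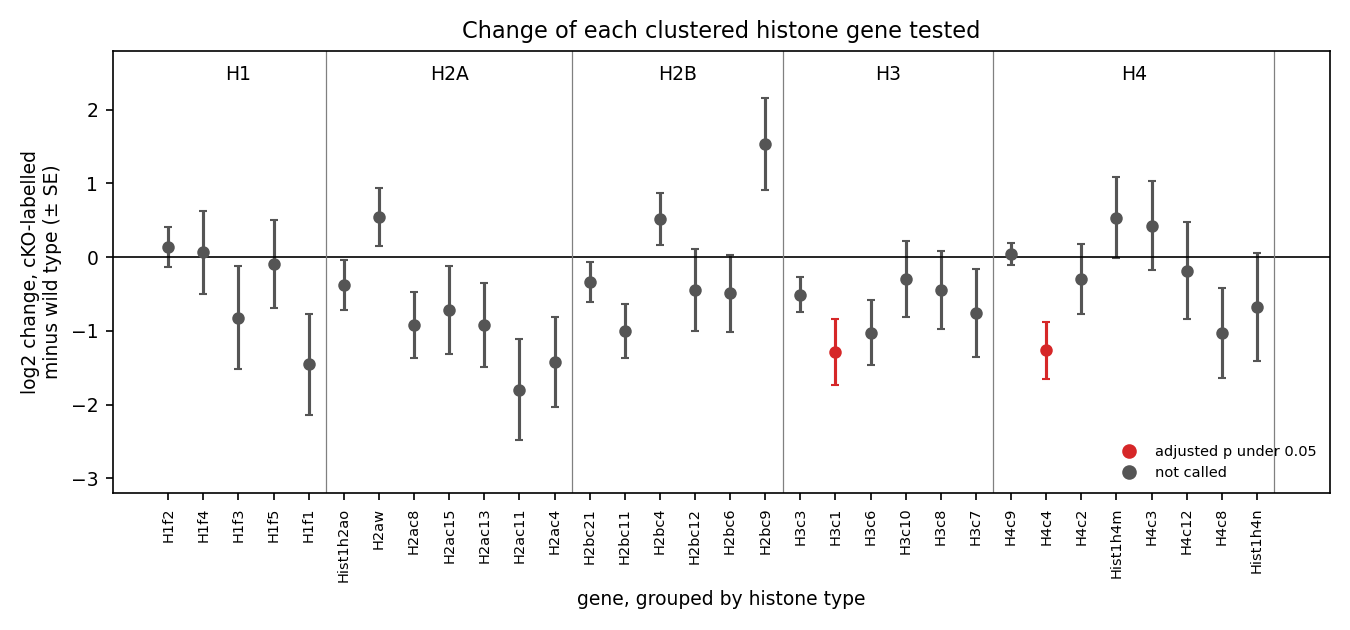
Log2 change (cKO-labelled minus wild type) with its standard error for the 32 clustered histone genes tested, grouped by histone type and ordered by mean CPM. The 2 genes past an adjusted p of 0.05, H3c1 and H4c4, lie at -1.29 and -1.26.

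H4c4, an H4 gene at chr13:23581598-23582735, had 54, 64, 14 and 33 counts in WT1, WT2, cKO1 and cKO2, or 3.13, 3.25, 0.78 and 1.89 CPM. Both wild-type libraries were alike and both cKO-labelled ones lower, cKO1 most. It fell by 1.26 on the log2 scale (SE 0.386, edgeR adjusted p = 0.021). H3c1, an H3 gene at chr13:23761853-23762386, had 43, 44, 9 and 25 counts, or 2.50, 2.24, 0.50 and 1.43 CPM. Its groups did not overlap either, and cKO1 was again the lowest library. It fell by 1.29 (SE 0.449, edgeR adjusted p = 0.042). Neither call held in every alternative. For H4c4 edgeR's adjusted p was 0.22 without cKO1 (change -0.76) and 0.067 without WT2. For H3c1 it was 0.33 without cKO1 (change -0.72), 0.15 without WT1, 0.090 without WT2 and 0.083 with the GC trend removed. DESeq2 called neither, at adjusted p = 0.12 and 0.19.

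H4c9 was the most abundant member, with 1016 counts and an FPKM (the count per exon length and library total) between 16.6 and 21.5, while the members' median FPKM was 1.39. The other 40 members held 76.8% of the summed CPM. Its CPM was 15.7, 12.1, 13.9 and 14.7 in WT1, WT2, cKO1 and cKO2. The cKO-labelled libraries lay between the wild-type ones, and the log2 change was 0.04 ± 0.15 (SE). Without H4c9 the ratio of the sums was 0.742. The other H4 members ranged from 20 to 165 counts. Besides H4c4, H4c8 did not overlap between groups, with 0.87, 0.76, 0.50 and 0.29 CPM (log2 change -1.03 ± 0.61, edgeR adjusted p = 0.26). Hist1h4m was higher in both cKO-labelled libraries, with 0.46, 0.76, 0.89 and 0.92 CPM (0.54 ± 0.55). H4c8 reached the filter's minimum in both wild-type libraries but in neither cKO-labelled one. Hist1h4m reached it in both cKO-labelled libraries but not in WT1.

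Among the H3 genes, H3c3 led with 5.40, 7.63, 4.83 and 4.355 CPM. All cKO-labelled values were below both wild-type ones, but WT2 was well above WT1, and the log2 change of -0.51 ± 0.23 did not pass the test (edgeR adjusted p = 0.13). H3c6 gave 2.26, 1.88, 1.39 and 0.63 CPM, again with no overlap (-1.03 ± 0.44, edgeR adjusted p = 0.11). All 6 H3 members tested had a change below 0 (51.1% of all genes tested), and in 4 of them both cKO-labelled libraries were lower (28.7% of all genes tested). H3c1 and H3c7, among these 4, reached the filter's minimum in both wild-type libraries but not in both cKO-labelled ones.

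Of the H2A genes, Hist1h2ao was the most abundant, with 2.61, 2.44, 2.165 and 1.72 CPM (log2 change -0.38 ± 0.34). H2ac11 had the most negative change of the members tested, -1.80 ± 0.69 (edgeR adjusted p = 0.065), from 24, 16, 10 and 1 counts. H2ac4 had 11, 26, 6 and 7 counts (-1.42 ± 0.61). Of the 7 H2A members tested, none was called (9.54% of all genes tested were called lower), and 5 lay lower in both cKO-labelled libraries (28.7% of all genes tested). H2ac11, H2ac4 and H2ac13, among these 5, reached the filter's minimum in both wild-type libraries but not in both cKO-labelled ones. Their place among the tested genes may rest on their wild-type counts, so the 5 is a description only. H2aw of the HIST3 cluster went the other way, with 1.39, 1.42, 2.33 and 1.78 CPM (0.54 ± 0.39, edgeR adjusted p = 0.37). With H2bu2, an H2B gene of 24 counts, it made the HIST3 sum 1.62 times as high in the cKO-labelled libraries.

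Among the H2B genes, H2bc21 of the HIST2 cluster led with 3.95, 4.17, 2.998 and 3.44 CPM (-0.34 ± 0.27). H2bc11 had 2.73, 3.56, 2.11 and 1.03 CPM, without overlap, and its change of -0.998 ± 0.37 did not pass the threshold (edgeR adjusted p = 0.057). Both cKO-labelled libraries were higher for H2bc4, with 1.74, 1.68, 2.83 and 2.06 CPM (0.52 ± 0.36), and for H2bc9, with 4, 7, 15 and 16 counts (1.54 ± 0.63, edgeR adjusted p = 0.088). Both missed the threshold, and H2bc9 reached the filter's minimum in both cKO-labelled libraries but in neither wild-type one.

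The linker histone H1f2 had 3.08, 4.12, 4.05 and 3.90 CPM, with WT1 the lowest library, and a change of 0.14 ± 0.27. H1f1, with 14, 12, 4 and 5 counts, was the only H1 member tested that did not overlap (-1.45 ± 0.68, edgeR adjusted p = 0.14). It reached the filter's minimum in both wild-type libraries but in neither cKO-labelled one.

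**Figure D3:**
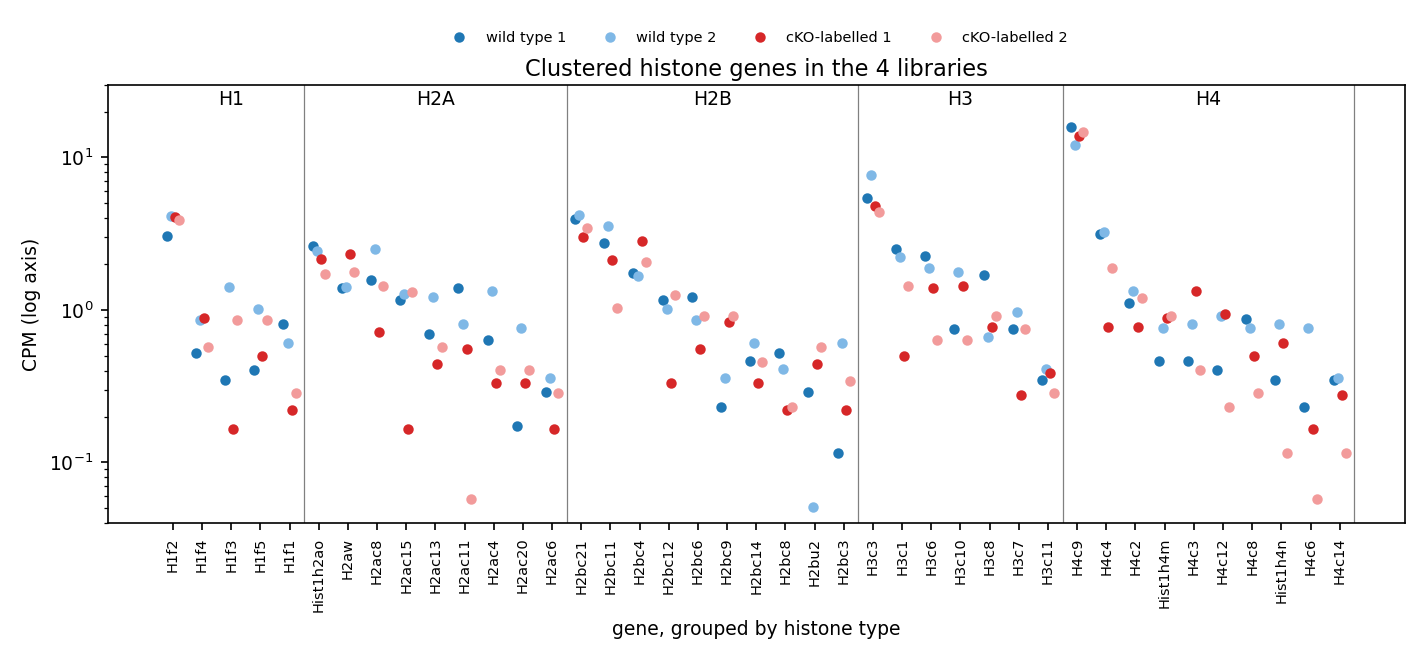
CPM of each of the 41 clustered histone genes in the 4 libraries, on a log axis, grouped by histone type. H4c9 stands above the rest at 12.1 to 15.7 CPM in all libraries, and most genes lie below 2 CPM.

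Setting the members by their annotated 3′ ends, a split chosen after the counts had been seen, gave different sums. The 15 members whose model ends within 100 bases of the stem-loop summed to 20.2, 25.4, 14.7 and 14.04 CPM in WT1, WT2, cKO1 and cKO2. All cKO-labelled values lay below both wild-type ones, and the ratio of means was 0.629. The 16 members with longer models summed to 32.2, 31.7, 28.3 and 29.97 CPM, with a ratio of 0.912. The 10 without a stem-loop match gave 11.96, 13.7, 10.7 and 10.6 CPM (ratio 0.830). Library WT2 was 1.26 times as high as WT1 in the short class and 0.987 times in the long one. H4c9, a member of the long class, gave 15.7, 12.1, 13.9 and 14.7 CPM of its sums in WT1, WT2, cKO1 and cKO2. The ratios of the long class, and their contrast with the short class, thus rest in large part on this gene. WT2 was the highest library for 14 of the 32 members tested and for 23.7% of all genes tested. Whether the classes differ was not tested.

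**Figure D4:**
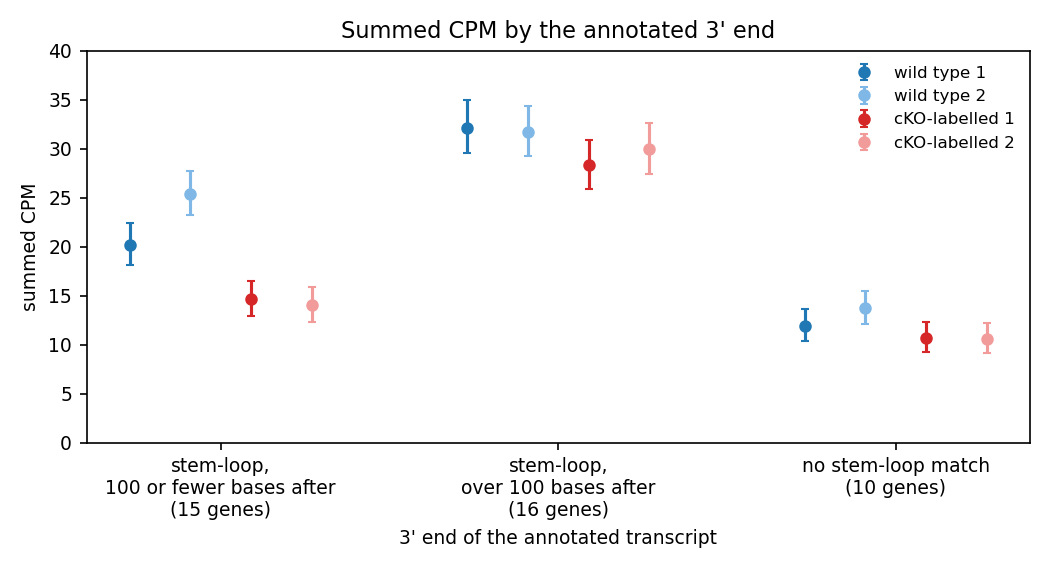
Summed CPM of the members in each library by the annotated 3′ end of the transcript, with exact Poisson 95% intervals that cover counting error only. In WT1, WT2, cKO1 and cKO2 the short class summed to 20.2, 25.4, 14.7 and 14.04 CPM, and the long class to 32.2, 31.7, 28.3 and 29.97.

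Near-identical sequence limits how far single members can be told apart. The median member shared 43.2% of its 50-base stretches with another clustered histone row, Hist1h2ao 93.5% and H3c10 93.9%. Of the called members H4c4 shared 10.2% and H3c1 49.5%. Exons of 12 of the 41 members, all 9 of H2A among them, overlapped another annotated gene. The library kit does not mark strand, so reads from an overlapping gene on the other strand cannot be told apart. The 29 members without such an overlap summed to a ratio of 0.822.

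Genes that make, process and use histone mRNA were counted from related lists in the same fit, in which 12.2% of all genes tested were called higher and 9.54% lower. The 12 variant histone genes lie outside HIST1, HIST2 and HIST3, and most are expressed independently of replication. They counted 3 higher and 2 lower of 10 tested, with a median log2 change of 0.02. H2aj, 1 of the 2 lower (-0.19 ± 0.06, edgeR adjusted p = 0.033), lies at chr6:136808244-136810074, near H4f16 of the HIST4 cluster (chr6:136801553-136804415). Its call did not hold with the GC trend removed or in DESeq2, where 1 variant was called lower. H1f0, a linker variant known from resting cells, rose from 9.34 and 8.34 to 18.8 and 18.5 CPM (1.08 ± 0.14, edgeR adjusted p = 4.1e-06). H3f3a, a gene for H3.3, fell from 559 and 545 to 433 and 425 CPM (-0.36 ± 0.06, edgeR adjusted p = 3.4e-05), and the call held in every alternative. H3f3b, the other H3.3 gene, was called higher by 0.17 (SE 0.055, edgeR adjusted p = 0.029), but not with the GC trend removed (0.10, edgeR adjusted p = 0.20) or without WT1, WT2 or cKO1 (edgeR adjusted p = 0.065, 0.26 and 0.098). Cenpa, the centromeric H3 variant, whose mRNA is known to peak in G2, rose by 0.35 (SE 0.065, edgeR adjusted p = 0.00034).

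Of 15 factors for histone gene transcription and stem-loop 3′ ends, 2 were called higher and none lower (median 0.04), a share near that over all genes. These were Casp8ap2, a scaffold of the histone locus body (0.25 ± 0.07, edgeR adjusted p = 0.0081), and Npat, the coactivator of clustered histone genes (0.21 ± 0.07, edgeR adjusted p = 0.040). Neither call held without WT1, without cKO1, with the GC trend removed or in DESeq2 (adjusted p from 0.051 to 0.26). Slbp, named after its values were seen as the stem-loop's binding protein, stood at 146, 151, 164 and 155 CPM (0.10 ± 0.06, edgeR adjusted p = 0.25). Of 11 decay genes, 3 rose and 1 fell. Eri1, an exonuclease that trims the stem-loop end, rose by 0.32 (SE 0.063), Xrn1, the 5′ to 3′ exonuclease, by 0.46. Dcp2, a decapping enzyme, was called at 0.19, but not with the GC trend removed (0.11, edgeR adjusted p = 0.19), in DESeq2, or without WT1, WT2 or cKO1. Mif4gd, a partner of Slbp in histone mRNA translation, fell by 0.46 (SE 0.061). Of 15 polyadenylation factors, 1 was called higher (Fip1l1, 0.19) and 1 lower (Cpsf1, -0.21), again near the shares over all genes. Both calls were lost with the GC trend removed (edgeR adjusted p = 0.21 and 0.25).

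Of 24 histone chaperones, 6 rose and 1 fell. Daxx, which deposits H3.3, rose from 61.3 and 60.0 to 97.6 and 98.2 CPM (0.69 ± 0.06, edgeR adjusted p = 1.5e-08). Of 22 DNA replication genes, 7 rose and 3 fell, with a median of 0.00: Rrm2, a subunit of ribonucleotide reductase, rose by 0.48 and Cdt1, the replication licensing factor, fell by 0.36. All 18 genes of G2 and mitosis rose (median 0.50), led by Nusap1, a spindle protein (0.79 ± 0.07). The lower sum of clustered histones thus stood beside mixed replication genes and higher mitotic genes. Lists were described by counts and medians, and their difference was not tested.

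**Figure D5:**
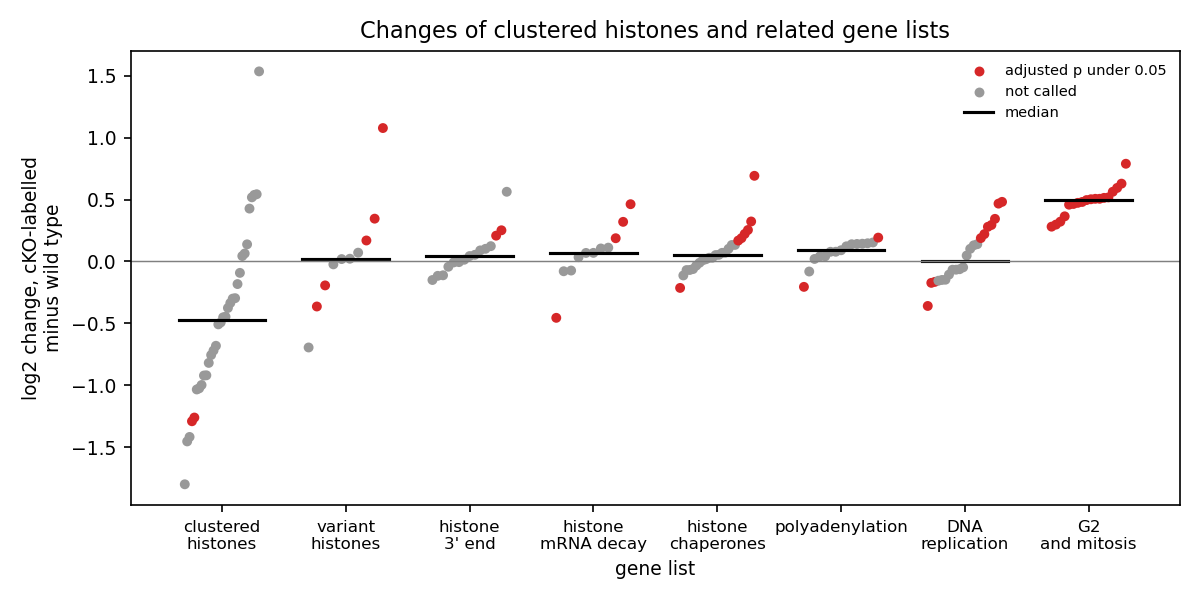
Log2 change (cKO-labelled minus wild type) of the 32 clustered histone genes tested and of 7 related lists, each dot a gene, red where the edgeR adjusted p was under 0.05, with the median as a bar. The clustered histones lie mostly below 0 (median -0.47) and the genes of G2 and mitosis all above (median 0.50).

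At the threshold of 20 counts, H2ac6 and H4c14 stood just inside, with 20 counts each, and H4c1, H2ac10 and H2bc13 just outside, with 18 each.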

How the data were processed

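Poly(A) RNA of 4 libraries was measured. Build GRCm38 and the tools HTSeq 0.6.1, HISAT2 2.0.1, cutadapt 1.9.1 and bcl2fastq 2.17.1.14 come from the submitters' processing notes. Their settings and the annotation were not stated there. The authors deposited whole-number counts and FPKM values per gene. The deposited FPKM values were recomputed from the counts within 0.005. They are used only to compare levels between genes. Multiple mapping of near-identical histone genes is not described.

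Counts were fitted with edgeR 4.0.16 (quasi-likelihood test, filterByExpr, TMM) in R 4.3.3, with Benjamini-Hochberg adjustment over all genes and a threshold of 0.05. The fit was tested on simulated data. The 200 genes changed in the simulation had a mean of at least 1 CPM, a level that 15 of the 41 members reached. It does not show how the fit treats the lower members. SEs are the log2 change over the root of F. DESeq2 1.42.0 was an alternative. The members, lists, motifs and 3′ end classes were chosen with earlier results of these data known. Named genes were the most abundant members, the called members, those at the threshold, and the leading genes of each list; others were chosen after their values were seen.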

Additional observations from a re-analysis of the deposited data

How the results depend on the processing

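With 2 libraries a group and a median of 54 counts a member, single members were often not callable. On the log2 scale the summed change of -0.32 was -0.43 without H4c9 and -0.21 for the 3 genes named by the table's own symbols, an alternative chosen after seeing the data; leaving out each library gave -0.39 to -0.25. The members called lower, 2 as reported, were 4 with no filter on low counts, 1 after removing a GC trend, 0 among the 3 genes by the table's own symbols and 0 in DESeq2 (2 at an unadjusted p under 0.05); leaving out each library gave 0 to 3, and the 3 without cKO1 (H2ac11, H2bc11 and H3c6) held neither H4c4 nor H3c1. The 0 came without WT2, where edgeR had 4 at an unadjusted p under 0.05. The same-numbered libraries did not deviate together (correlation -0.03), but this 1 value cannot exclude that the replicate numbers pair them. With the replicate block 4 members were called lower, and over all genes 1904 were called higher and 1594 lower. With the replicate block and GC trend removed, 1 member was called lower. The lists as reported had 5 variant, 2 3′ end, 4 decay, 7 chaperone, 2 polyadenylation and 10 replication genes called. Leaving out each library gave 3 to 5 variant, 0 to 2 3′ end, 3 to 6 chaperone, 0 to 3 polyadenylation and 5 to 9 replication genes. DESeq2 called 0 3′ end, 3 chaperone and 0 polyadenylation genes. No filter gave 1 3′ end gene. Removing the GC trend gave 1 3′ end, 4 chaperone and 6 replication genes, and with the block 1, 3 and 6. Over all genes DESeq2 called 1118 higher and 740 lower, against 1727 and 1353. Signs turned, over the range from leaving out each library, for H1f2 (-0.057 without WT1, up to 0.36), H4c9 (-0.14 without WT2, up to 0.23), Malat1 (-0.017 without WT1, up to 0.49), Npm1 (-0.090 without cKO1, up to 0.12) and Rn7sk (-3.16 without WT1, 1.26 without WT2). Removing the GC trend gave -0.059 for Npm1 and 0.0397 for Upf1, and with the block -0.062 and 0.0397. The causes were not tested.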

Other observations

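Of the 70 rows with a clustered histone symbol, 29 stayed under 20 counts, and 11 of them had no count in any library. They include H1f6 and H2bc1, genes known from the testis. Among the rows at 0, H2ac18, H2ac19, H2bc18, H3c13 and H3c14 of the HIST2 cluster had 100% of their exon bases under other annotated genes. H4f16, the H4 gene of the HIST4 cluster, had 15 counts.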
